A study of Rattus norvegicus with 18 samples.

Results

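The comparison described here asked what indomethacin had changed in rat ovarian follicles before they rupture: 3 samples from rats given the drug were set against 3 samples from untreated rats, all collected at 22:00 of proestrus, 6 of the 18 samples of the study. The samples were chosen by their titles. Indomethacin blocks the cyclooxygenases, the enzymes that start prostaglandin synthesis, and was given once by mouth at 4 mg/kg at 16:00 of proestrus. The labels call the controls non-treated and name no vehicle. All animals were cycling Crl:CD(SD) rats, a Sprague-Dawley stock, and no age is stated for them in the labels. Follicles were cut by laser from stained frozen sections 8 micrometres thick, 15 follicles per phase per the labels, so that each sample mixes all the cell types of the follicle. A second pair of groups of 3, follicles that had stayed unruptured under indomethacin and untreated post-ovulatory follicles, both of 10:00 of estrus, served to set the early differences beside late ones in other samples. The remaining samples came from rats given RU486 at 100 mg/kg and were collected at 22:00 or 10:00. They are not compared here, but they entered the normalization, the filter and the spread shared in the fit. The labels give 3 animals per group but do not tie a sample to an animal, and p-values measure the spread between samples.

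Ovulation starts with the surge of luteinizing hormone on the afternoon of proestrus. Granulosa cells, which line the follicle, answer through cyclic AMP with EGF-like growth factors, with the progesterone receptor and with cyclooxygenase 2, encoded by Ptgs2, whose product is turned into prostaglandin E2 and other prostaglandins. These act on receptors of the follicle wall and of the cells around the oocyte, and rodents that lack cyclooxygenase 2 or the EP2 receptor ovulate poorly. Indomethacin acts on the enzyme itself, so that the messenger RNA of its target is no check of the treatment.

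Every array measured the follicles' RNA on 31042 probe sets beside 57 controls. Values below are log2 of the quantile-normalized signal plus a pseudocount, and differences are indomethacin minus untreated on that scale, with the standard error (SE) of limma. On that scale a difference of 1 is 2-fold, and understates the change of dim genes. Untreated sample 3 and indomethacin sample 2 were dim, with median deposited signals of 4.4 and 11.12 against 16.17 to 22.3 on the other 4 arrays, and 25.1% and 14% of their probe sets stood at the floor of the deposited scale against 8.77% to 11%. The spiked control for cre was as bright on them (15834.7 and 16034.9) as on the others (14992.1 to 18750.3). Untreated sample 3 correlated with the other 5 at 0.847 to 0.891 across probe sets, and the other 5 with each other at 0.929 to 0.972. Beside the differences that these 2 arrays move most, the values without them are therefore given too. The 3' minus 5' signal of Gapdh, a measure of RNA quality, was 4.11, 2.96 and 4.10 in the untreated samples and 2.59, 3.63 and 2.76 in the treated ones, higher on average untreated and with overlap. Its part in the results below was not tested.

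No gene passed the threshold before rupture. Of 18155 probe sets tested, 0 (0%) were called at a limma p adjusted by Benjamini-Hochberg under 0.05, and the lowest adjusted p was 0.154. An unadjusted p under 0.05 was reached by 1212 probe sets (6.68%) on the higher side and by 862 (4.75%) on the lower. For 10391 genes, 1 probe set each, this came to 736 (7.08%) and 416 (4%). These counts use a spread shared by all 6 groups. In a fit of only the 2 compared groups, with fewer degrees of freedom, 586 of 18155 probe sets reached that p. With the shared spread the data bound most genes. The 95% interval of the difference lay within 2-fold in either direction for 10593 probe sets (58.3%), against 8330 of 18155 with only the compared groups. With the shared spread it did so for 7021 genes (67.6%), and its median half-width over genes was 0.51. The other genes could differ by more than 2-fold without showing it with 3 samples a group. Without the 2 dim arrays 0 were called as well, with 1575 at an unadjusted p under 0.05. The count of calls turned on single arrays: leaving out untreated sample 2 gave 27 (20 higher, 7 lower), leaving out untreated sample 1 gave 1, and leaving out any other of the 6 gave 0. Weighting the arrays by their estimated quality gave 2349 calls (1163 higher, 1186 lower), with weights of 3.97 for untreated sample 2 and 7.17 for indomethacin sample 3 and of 0.112 to 0.658 for the other 4, so that the comparison then rests largely on 1 array of each group.

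The genes of the drug's own pathway did not pass the test in either direction. Of 26 genes of prostaglandin synthesis, transport, breakdown and reception, 24 had a probe set and 16 were bright enough to be tested. Among them 2 reached an unadjusted p under 0.05, both higher, and none passed after adjustment.

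In the synthesis step, 9 genes were tested, with a median difference of 0.042 against 0.053 over all genes. Ptgs2 read 9.92, 12.27 and 12.87 in the untreated samples and 12.10, 8.13 and 11.82 in the treated ones. The groups overlapped, each with 1 low sample and a pair of high ones, and the difference of -1.00 ± 0.83 (SE) had an interval from -2.74 to 0.74 (adjusted p = 0.628, limma). Without the 2 dim arrays the difference was 0.87. The standard deviation (SD) of Ptgs2 was 1.56 untreated and 2.21 treated here, and 0.16 and 0.91 at 10:00 of estrus. Its SE and interval, from the shared spread, are thus narrower than the compared groups alone would give. Pla2g4a, the cytosolic phospholipase that frees arachidonic acid, read 7.71, 8.22 and 9.94 against 9.24, 7.44 and 8.53, a difference of -0.22 ± 0.46 (0.92 without the dim arrays). Ptgs1, the constitutive cyclooxygenase, read 4.69, 4.80 and 2.07 untreated and 4.03, 4.57 and 4.39 treated, and the low untreated value is the floor of the dim array. Its difference of 0.48 ± 0.54 became -0.54 without the dim arrays.

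The synthases that make prostaglandin E2 differed in how tightly they could be measured. Ptges3, the cytosolic synthase also known as a co-chaperone, lay between 11.48 and 11.77 in all 6 samples, and its difference was 0.042 ± 0.093, with an interval from -0.15 to 0.24. Ptges, the inducible microsomal synthase, read 4.69, 3.96 and 5.48 against 5.15, 6.38 and 4.16, a difference of 0.52 ± 0.44 (0.33 without the dim arrays) with an upper bound of 1.46. Ptges2 was higher by 0.46 ± 0.20 (adjusted p = 0.407, limma), with treated sample 2, a dim array, highest at 8.37, and by 0.059 without the dim arrays. The synthases of the other prostanoids, Ptgds for prostaglandin D2, Ptgis for prostacyclin and Tbxas1 for thromboxane, differed by 1.17 ± 0.60, -0.38 ± 0.56 and -0.44 ± 0.44, and each overlapped between the groups. The dim arrays left out, they differed by 0.54, -0.41 and 0.14. Pla2g2a was above background on 0 of the 6 arrays and Hpgds on 4, and neither was tested.

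With the shared spread, transport and breakdown were the best bounded part of the pathway, with 5 of 6 genes inside a 2-fold interval, against 67.6% of all genes. Hpgd, the dehydrogenase that inactivates prostaglandins, read 9.48, 10.75 and 10.90 untreated and 10.54, 10.29 and 10.32 treated. Its means differed by 0.0057 ± 0.31, with an interval from -0.64 to 0.65, and by 0.31 without the dim arrays. The SD of Hpgd was 0.78 untreated and 0.14 treated, so that its interval is narrower than the compared groups alone would give. Slco2a1, the transporter that takes prostaglandins into cells, lay between 6.44 and 6.80 in all 6 samples and differed by 0.12 ± 0.26. Ptgr1, Ptgr2 and Cbr1, which reduce prostaglandins or their oxidized products, differed by 0.31 ± 0.21, 0.17 ± 0.25 and -0.017 ± 0.31, and the exporter Abcc4 by 0.58 ± 0.33. These 4 and Slco2a1 differed by 0.083, -0.44, -0.083, -0.20 and 0.046 without the dim arrays.

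The receptors were near the limit of the arrays. Ptger1, Ptger2, Ptger4 and Ptgdr2 were above background on 0 of the 6 arrays, Tbxa2r on 1 and Ptgfr on 3, and no probe set was named for Ptgir or Ptgdr. A drug effect on Ptger2, the EP2 receptor of cumulus expansion, or on Ptger4 was thus not detectable here. Only Ptger3, the EP3 receptor, was tested. It read 5.03, 4.03 and 2.07 untreated and 4.49, 5.20 and 5.07 treated, the 2.07 being the floor of the dim array, and the groups overlapped. The difference was 1.21 ± 0.57 (adjusted p = 0.437, limma), and 0.25 without the dim arrays.

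**Figure D1:**
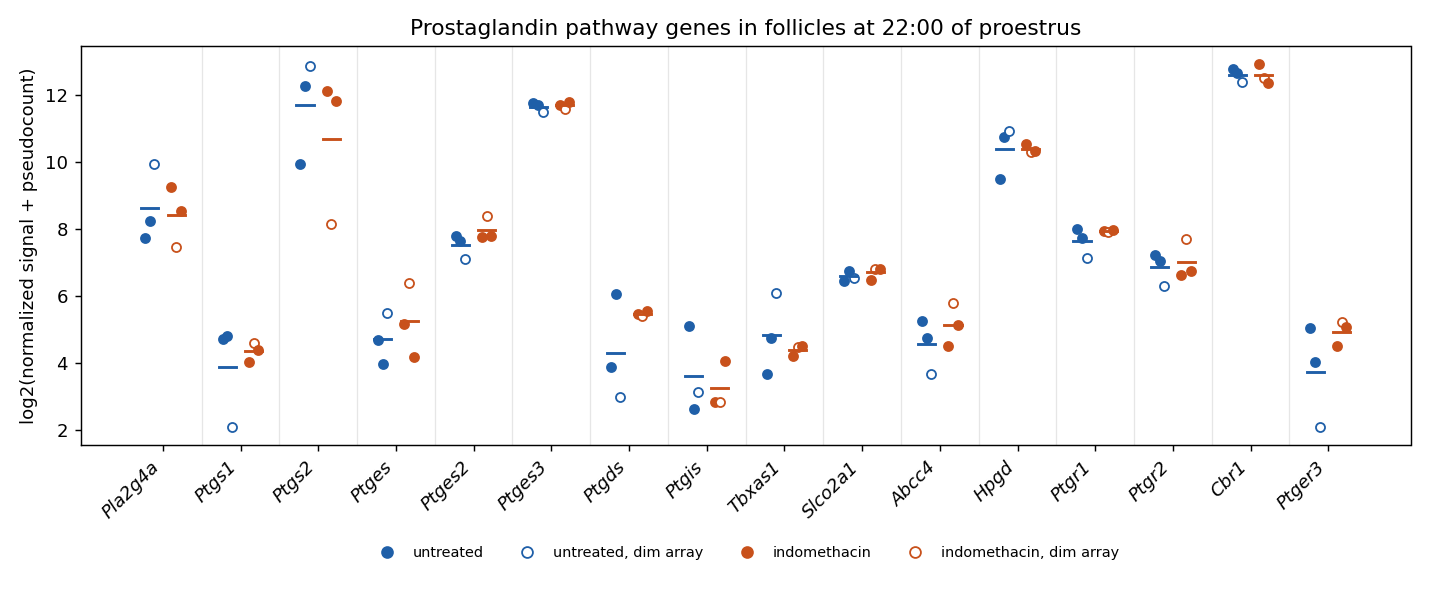
Log2 values of the 16 tested prostaglandin pathway genes (x axis) in the 3 untreated and 3 indomethacin samples of 22:00 (points; bars are group means, open points the 2 dim arrays). The groups overlap for all 16 genes, Ptgs2 spans 8.13 to 12.87, and Ptges3 stays between 11.48 and 11.77.

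Among the genes that luteinizing hormone induces, Areg, Ereg and Pgr spread widely among samples of 1 group, and the groups overlapped. Of 16 tested regulators in that list 0 reached an unadjusted p under 0.05, with a median difference of -0.052, and 10 had an interval within 2-fold. Areg, which encodes amphiregulin, one of the growth factors that pass the hormone's signal to the cumulus cells, read 8.03, 9.31 and 11.87 untreated and 10.99, 6.77 and 9.19 treated. Untreated sample 3 was highest, treated sample 2 lowest, and the difference was -0.75 ± 0.81, with an interval from -2.46 to 0.96. Ereg, which encodes epiregulin, read 7.71, 9.51 and 12.33 against 10.78, 6.49 and 9.24, the same order of samples, with a difference of -1.01 ± 0.91. Pgr, the progesterone receptor, read 5.73, 6.79 and 9.02 against 7.64, 4.56 and 6.77, a difference of -0.86 ± 0.74 (adjusted p = 0.643, limma). The SDs, untreated and treated, were 1.96 and 2.12 for Areg, 2.33 and 2.17 for Ereg and 1.68 and 1.58 for Pgr. At 10:00 of estrus they were 0.079 to 0.75, so that the shared spread makes these SEs too narrow for the compared groups.

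The same samples stood at the ends for other ovulatory genes. Lhcgr, the receptor of luteinizing hormone, read 7.27, 9.01 and 10.27 against 9.23, 6.42 and 8.04, a difference of -0.95 ± 0.64. Cyp19a1, the aromatase that makes estradiol, read 7.38, 8.31 and 9.56 against 8.90, 6.58 and 8.31, a difference of -0.48 ± 0.49. Il6 read 2.80, 5.57 and 7.67 against 6.37, 3.99 and 4.49, with untreated sample 1 lowest, and differed by -0.40 ± 0.83. Inhba, the activin and inhibin subunit, and Serpinb2, a plasminogen activator inhibitor, differed by -0.76 ± 0.71 and -0.43 ± 0.69.

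Counted after these values were seen, untreated sample 3 was the highest and treated sample 2 the lowest of the 6 in 908 of all 10391 genes (8.74%). The reverse order, treated sample 2 highest and untreated sample 3 lowest, was found in 1561 (15%), so that the 2 arrays stood at opposite ends in 23.8%. The counts in the first order were 4 of 16 among the regulators induced by luteinizing hormone (Pgr, Fosl1, Fosl2 and Rgs2), 3 of 11 in EGF family signalling (Areg, Ereg and Spry2), 6 of 14 in steroidogenesis, 7 of 18 among immediate early genes, and 0 of 7 in the cumulus matrix, 0 of 10 for PPAR and 0 of 6 in prostaglandin transport and breakdown. In the reverse order they were 1, 1, 2, 0, 0, 2 and 2, and for granulosa markers 3 of 12 in the first and 5 of 12 in the reverse. These are the 2 dim arrays, and the part that dimness has in this order was not tested. Without them the differences changed sign: Areg 1.42, Ereg 1.40, Il6 1.24, Serpinb2 1.08, Pgr 0.94, Pla2g4a 0.92, Cyp19a1 0.76, Inhba 0.71, Cyp17a1 0.69 and Lhcgr 0.49, none called. Their direction thus turned on whether these 2 arrays were included.

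**Figure D2:**
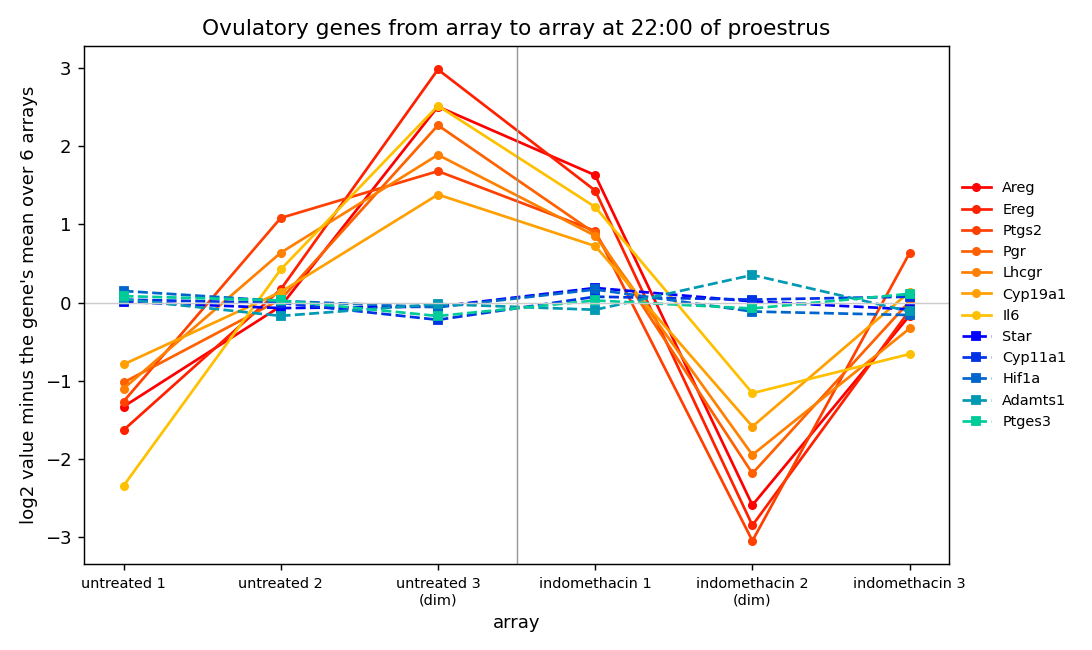
Log2 value of each gene minus its mean over the 6 arrays of 22:00 (y axis) by array (x axis); lines join the values of 1 gene, and the samples have no order. Areg, Ereg, Ptgs2, Pgr, Lhcgr and Cyp19a1 are highest in untreated sample 3 and lowest in indomethacin sample 2, Il6 is lowest in untreated sample 1, and Star, Cyp11a1, Hif1a, Adamts1 and Ptges3 stay near 0.

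The promoters of 2 genes whose samples fell in this order are shown because they carry elements through which hormone signals are known to act. Both are the 150 bases before the RefSeq start in build GRCr8, read in the direction of the gene, and 303 of the 418 genes of the lists had such a window. Areg, chr14:17265642-17265791, minus strand, holds the cAMP response element TGACGTCA, in capitals, from base 91 before the start. Ptgs2, chr13:64713913-64714062, plus strand, holds the E-box CACGTG, in capitals, from base 55 before the start. Each motif reads the same on both strands and they do not overlap each other. Of 33469 windows of this length, 1.36% hold the first and 3.74% the second. The part of either element in the order of the samples was not tested.
Areg: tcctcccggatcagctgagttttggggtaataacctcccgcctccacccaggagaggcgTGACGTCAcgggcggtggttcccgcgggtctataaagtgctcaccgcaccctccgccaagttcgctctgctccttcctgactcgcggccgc
Ptgs2: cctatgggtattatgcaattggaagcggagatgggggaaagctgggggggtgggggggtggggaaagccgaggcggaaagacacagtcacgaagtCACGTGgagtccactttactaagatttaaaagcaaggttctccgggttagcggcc

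Other genes of ovulation were steady enough to bound the effect. Star, which carries cholesterol into mitochondria, read 12.13, 12.06 and 12.07 untreated and 12.31, 12.14 and 12.04 treated, a difference of 0.077 ± 0.14 with an interval from -0.22 to 0.37. Cyp11a1, which makes pregnenolone from cholesterol, lay between 12.84 and 13.13 and differed by 0.12 ± 0.092, with an interval from -0.07 to 0.32. Adamts1, a protease of the cumulus matrix that the progesterone receptor induces, read 12.16, 11.94 and 12.09 against 12.02, 12.47 and 12.00 and differed by 0.098 ± 0.27, with an interval from -0.47 to 0.67. Hif1a, a subunit of the hypoxia-inducible factor, differed by -0.072 ± 0.10. Vegfa, its angiogenic target, differed by 0.14 ± 0.19, with an interval from -0.27 to 0.55, and Vegfa and Adamts1 by 0.30 and -0.039 without the dim arrays. Hsd3b1, which makes progesterone from pregnenolone, was the only steroidogenic gene of 14 at an unadjusted p under 0.05: it read 13.11, 13.29 and 13.29 untreated and 13.35, 13.59 and 13.40 treated, without overlap, and was higher by 0.22 ± 0.09 (adjusted p = 0.398, limma), although with a common median per array the difference was -0.045 relative to all probe sets.

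The genes of the cumulus matrix lay between these extremes. Tnfaip6, whose product binds hyaluronan, read 8.09, 9.15 and 9.22 against 10.10, 7.24 and 9.53, a difference of 0.14 ± 0.53 that became 1.19 without the dim arrays. Has2, the hyaluronan synthase, differed by -0.30 ± 0.50, Edn2, the endothelin induced close to rupture, by 0.27 ± 0.49, and Cd44, a hyaluronan receptor, by 0.79 ± 0.38, and in none of them were the groups separate. They differed by 0.35, 0.35 and 1.26 without the dim arrays. Gdf15 was above background on 1 of the 6 arrays and was not tested.

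**Figure D3:**
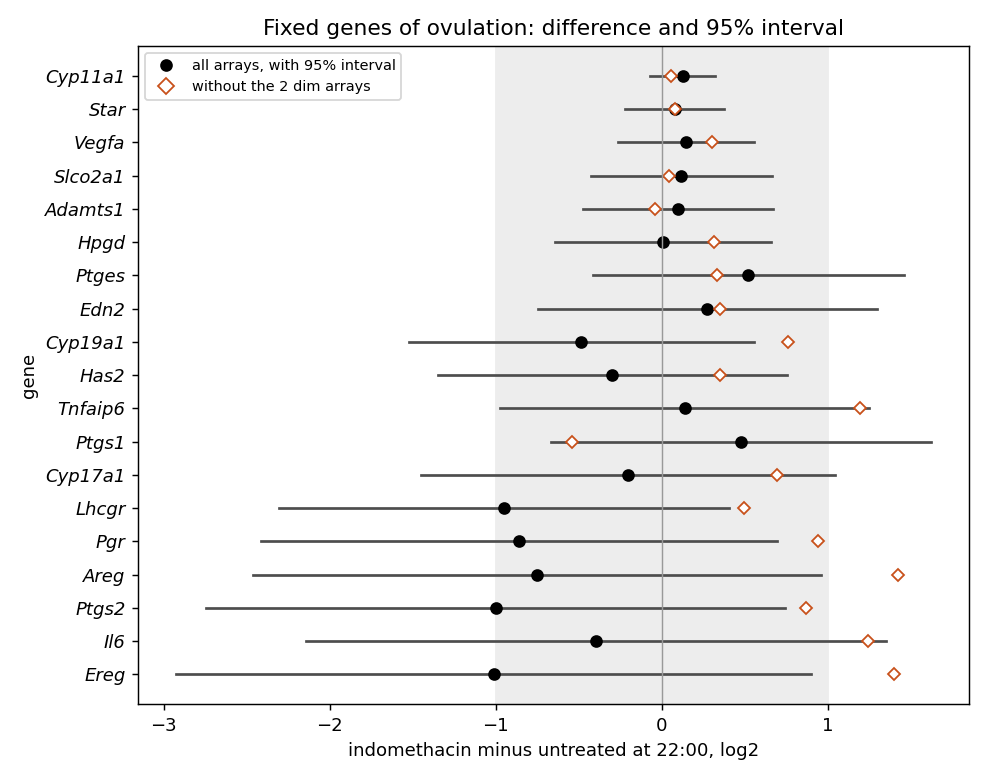
Difference between indomethacin and untreated at 22:00 (x axis, log2) for 19 genes of ovulation (y axis), with all arrays (black points, bars are 95% intervals) and without the 2 dim arrays (open diamonds); the grey band is 2-fold. The intervals use the spread shared by all 6 groups. Those of Cyp11a1, Star, Vegfa, Slco2a1, Adamts1 and Hpgd lie inside the band. Ptgs2, Areg, Ereg, Pgr and Lhcgr change sign without the dim arrays.

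Across the pathway lists no member was called. Of 11 genes of EGF family signalling 1 reached an unadjusted p under 0.05, on the lower side. This was Dusp6, a phosphatase induced by ERK signalling. It read 11.88, 11.11 and 11.28 against 10.75, 9.88 and 11.33, a difference of -0.77 ± 0.34 (-0.45 without the dim arrays). Without those arrays 3 of the 11 were on the higher side at that p and 0 on the lower. Of 18 matrix proteases and inhibitors 2 were on the higher side and 1 on the lower. Mmp19 was higher by 1.33 ± 0.47, but untreated sample 3 stood at the floor, and without the dim arrays the difference was 0.44. Of 18 immediate early genes 1 was on the higher side and 3 on the lower, against 7.08% and 4% of all genes. Without the dim arrays 2 were on the higher side and 0 on the lower. The list then had 13 of 18 positive, against 5002 of 10391 genes, and a median of 0.35 in place of -0.15. Fos read 7.36, 7.40 and 8.91 against 7.31, 6.55 and 6.96, without overlap, and Jun 8.48, 8.53 and 7.96 against 8.90, 8.71 and 8.76, also without overlap. These partners in the AP-1 factor differed by -0.95 ± 0.43 and 0.46 ± 0.20 (adjusted p = 0.423 and 0.411, limma), and by -0.25 and 0.32 without the dim arrays. The groups did not overlap in 578 of all genes (5.56%) on the higher side and 494 (4.75%) on the lower, and in 5.37% and 5.27% of all probe sets.

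Over all genes 11.1% had an unadjusted p under 0.05 in either direction. In the signalling and stress lists the counts were 0 of 13 for the cyclic AMP response, 0 of 10 for PPAR factors and targets, nuclear receptors that indomethacin can also bind, 0 of 3 for lipoxygenase genes, 1 of 15 for cytokines and chemokines, 1 of 10 for NF-kappaB feedback, 0 of 7 for the cumulus matrix, 4 of 15 for vascular signals (2 in each direction, the lower ones also counted as endothelium) and 2 of 18 for oxidative and cell stress. For the cell cycle it was 2 of 25, both lower: Ccnd2, a granulosa cyclin, by -0.69 ± 0.23, with treated values of 7.44, 7.52 and 7.51 below untreated values of 7.89, 8.63 and 8.01, and Tyms by -0.58 ± 0.24. Without the dim arrays 24 of 25 cell cycle genes were negative, 5 of them at an unadjusted p under 0.05, with a median of -0.25, and over all genes 5387 of 10391 were negative. With all arrays 10 of 25 were negative.

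The members with the smallest unadjusted p in the other lists differed in how far they rested on the dim arrays. Vegfb, a growth factor of the VEGF family, read 6.73, 6.76 and 5.40 untreated and 7.14, 7.08 and 6.94 treated, a difference of 0.76 ± 0.26 that was 0.30 without the dim arrays. Cxcr4, a chemokine receptor, differed by 0.84 ± 0.35, with treated sample 2 highest at 11.23, and by 0.098 without those arrays. Birc3, an inhibitor of apoptosis that NF-kappaB induces, differed by -1.17 ± 0.45, and the immediate early factor Klf4 by -0.69 ± 0.26, and without those arrays by -0.60 and -0.13. Txnrd1, the thioredoxin reductase, kept its size: it read 7.94, 7.65 and 7.51 against 8.26, 7.83 and 7.97, with overlap, and differed by 0.32 ± 0.15 with and by 0.32 without them. Pparg, the hyaluronan-degrading Cemip, the kinase Sgk1 and the leukotriene synthase Ltc4s had positive differences of 0.53 ± 0.32, 0.67 ± 0.32, 0.31 ± 0.15 and 0.53 ± 0.27, none at an unadjusted p under 0.05. These were 0.097, 0.20, 0.15 and 0.37 without the dim arrays.

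**Figure D4:**
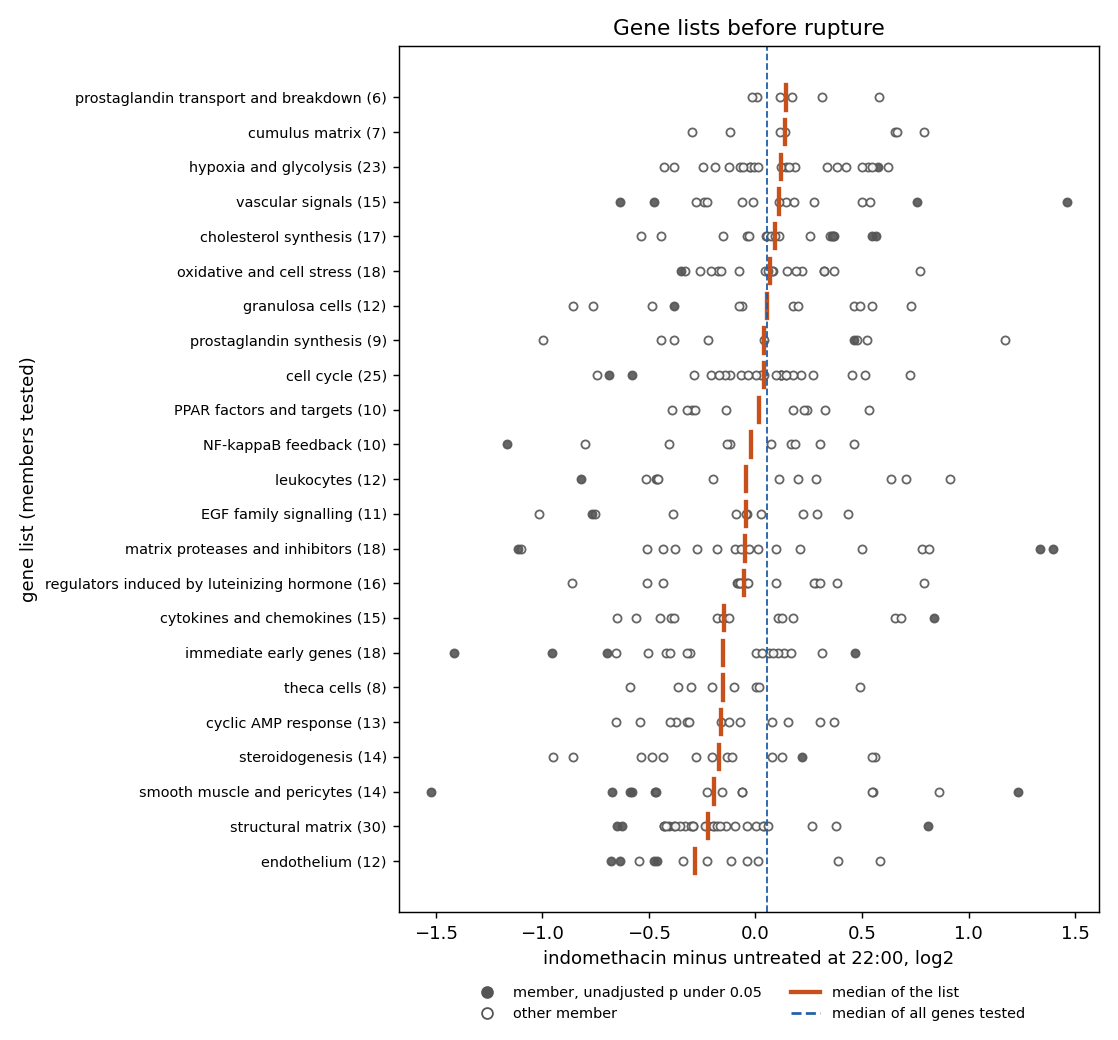
Difference at 22:00 (x axis, log2) of each tested member of the gene lists with at least 5 tested members (y axis, number tested in brackets); filled points have an unadjusted limma p under 0.05, red bars are list medians and the dashed line is the median of all genes, 0.053. Endothelium, structural matrix and smooth muscle have the lowest medians, -0.28, -0.22 and -0.19.

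Markers of the muscle and vessel cells of the follicle wall lay mostly on the lower side. Of 14 tested markers of smooth muscle and pericytes 5 reached an unadjusted p under 0.05 on the lower side and 1 on the higher. Over all genes 4% and 7.08% did. Of the 14, 10 were negative and 4 positive, where 56.5% of all genes were positive. Myh11, the smooth muscle myosin heavy chain, read 6.19, 5.86 and 7.01 untreated and 5.06, 4.34 and 5.10 treated. All treated values lay below all untreated ones, and the difference was -1.52 ± 0.32 (adjusted p = 0.189, limma). Without the dim arrays it was -0.95, and at 10:00 of estrus it was 0.11. Mylk, the kinase that starts smooth muscle contraction, read 8.16, 7.62 and 8.57 against 7.49, 7.61 and 7.24, without overlap, a difference of -0.67 ± 0.21. The intermediate filament Des (6.86, 6.94 and 6.55 against 6.16, 6.31 and 6.16) differed by -0.58 ± 0.22. Tpm2 and Myl9, of the contractile apparatus, differed by -0.47 ± 0.17 and -0.59 ± 0.23, with overlap, and by -0.46 and -0.19 without the dim arrays.

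Other genes of the same cells differed less. Acta2, the smooth muscle actin, differed by -0.062 ± 0.30 (-0.23 without the dim arrays) and Tagln by -0.23 ± 0.24. The pericyte genes Notch3, Pdgfrb and Rgs5 had positive differences of 1.23 ± 0.50, 0.86 ± 0.43 and 0.55 ± 0.50, and untreated sample 3 was at the floor for Notch3 and Rgs5. Their differences without the dim arrays were 0.42, 0.30 and -0.16. Without the dim arrays 4 of 14 were on the lower side at an unadjusted p under 0.05 and 0 on the higher, with 9 of 14 negative.

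Of 12 tested endothelial markers 4 were on the lower side at an unadjusted p under 0.05, against 4% of all genes. Of the 12, 9 were negative and 3 positive, where 56.5% of all genes were positive. Emcn, an endothelial sialomucin, read 8.05, 8.06 and 8.39 against 7.63, 7.64 and 7.86, a difference of -0.46 ± 0.17 (adjusted p = 0.379, limma). Tek, the angiopoietin receptor, Flt1, a receptor of VEGF, and Pecam1, an adhesion molecule, also did not overlap between the groups and differed by -0.48 ± 0.21, -0.63 ± 0.29 and -0.68 ± 0.31. Without the dim arrays these 3 differed by -0.40, -0.46 and -0.42, 0 of 12 reached an unadjusted p under 0.05, and 11 of 12 were negative.

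Summed over each list, the groups did not overlap on the normalized scale: the smooth muscle markers came to 1331 to 1867 untreated and 1042 to 1210 treated, and the endothelial ones to 1409 to 1525 and 1101 to 1252. With each array scaled to a common median instead they overlapped, at 965.1 to 1351 and 945.2 to 1138, and at 783.9 to 1343 and 895.5 to 1149. Of the markers 9 of 14 and 9 of 12 were above background on all 6 arrays, and no probe set was named for Cdh5. In sections of whole follicles, fewer cells of a type and less RNA per cell cannot be told apart.

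The structural matrix followed the same side. Of 30 tested genes 23 were negative and 7 positive, where 56.5% of all genes were positive. An unadjusted p under 0.05 was reached by 5 on the lower side and 1 on the higher, against 4% and 7.08% of all genes. The interval lay within 2-fold for 22. Lox, which crosslinks collagen, read 7.78, 7.69 and 8.37 against 7.59, 6.89 and 7.48, a difference of -0.63 ± 0.22 that was -0.20 without the dim arrays. Col3a1, a fibrillar collagen of soft tissue, read 11.05, 10.93 and 10.84 against 10.27, 10.80 and 10.52 and differed by -0.41 ± 0.15 (-0.59 without them). Col5a1, which nucleates collagen fibrils, went the other way: its treated values of 8.56, 8.47 and 8.79 lay above untreated values of 7.93, 7.49 and 7.96, a difference of 0.81 ± 0.24 (adjusted p = 0.330, limma), and 0.96 without the dim arrays. Without those arrays 24 of 30 genes were negative, and 1 reached an unadjusted p under 0.05 on each side. The sums of the smooth muscle and endothelial markers moved with these genes, and their part in the matrix differences was not tested.

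The samples carried the markers of their labelled tissue. Of 12 tested granulosa markers 11 were above background on all 6 arrays and 1 was on the lower side at an unadjusted p under 0.05. This was Gja1, the gap junction protein that couples granulosa cells, which read 12.45, 12.27 and 12.65 untreated and 12.22, 11.96 and 12.05 treated. The groups did not overlap, and the difference was -0.38 ± 0.13 (adjusted p = 0.365, limma), and -0.23 without the dim arrays. Theca markers gave 0 of 8, with Tcf21 at 0.49 ± 0.32, and leukocyte markers 1 of 12, the macrophage complement gene C1qa at -0.82 ± 0.35. Their sums overlapped between the groups, and so did that of the erythrocyte genes, of which Hbb, a globin, differed by -0.58 ± 0.49. The oocyte genes Zp2, Zp3, Gdf9 and Ooep were positive in all 4 cases, with a median of 0.81, but their sum ran from 21.83 to 128.6 untreated and from 42.69 to 259.7 treated, and none of the 4 was above background on all 6 arrays. Upk1b, a surface epithelium marker, read 3.68, 4.36 and 4.38 untreated and 3.09, 1.93 and 3.52 treated and differed by -1.30 ± 0.40, and by -0.72 without the dim arrays, at a level close to the floor. The markers of this epithelium summed to 67.6 to 83.2 untreated and 23.1 to 57.8 treated. With a common median per array they came to 60.7 to 75 and 22.1 to 53.4, without overlap on either scale. As deposited they overlapped, at 15.93 to 99.86 untreated and 14.65 to 62.49 treated. None of the 3 was above background on all 6 arrays. Of 3 tested markers of that epithelium 2 were on the lower side at an unadjusted p under 0.05, against 4% of all genes. Without the dim arrays 1 of 3 was, against 511 of 10391 genes, and Krt18 differed by -0.097. Of 2 tested erythrocyte markers 0 reached that p with all arrays.

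At 10:00 of estrus the difference was measured in other samples, of which unruptured sample 2 was dim, with a median signal of 7.68. There the treated follicles were unruptured and the untreated ones post-ovulatory, so that drug and failed rupture cannot be told apart. Of all 18155 probe sets 48.6% had the same sign at both times, and of the 2074 at an unadjusted p under 0.05 before rupture 50.1%. An unadjusted p under 0.05 at both times was found for 148 probe sets, which are 7.14% of the early and 11.7% of the late ones, and 92 of them had the same sign (38 higher, 54 lower). At 10:00 6 of 18155 (0.033%) were called, and 6.97% had an unadjusted p under 0.05. The test of the difference between the times called 0 (0%), with 1641 (9.04%) at an unadjusted p under 0.05.

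Genes of hypoxia and glycolysis were little different before rupture and lower at the later time. Before rupture 1 of its 23 genes reached an unadjusted p under 0.05, Egln1, an oxygen sensor, higher by 0.58 ± 0.22 and by 0.21 without the dim arrays, and 15 of 23 had an interval within 2-fold. The list's median difference was 0.12 early and -0.58 late. At 10:00 of estrus 15 of 23 reached that p and 4 were called (Egln3, Ndrg1, Ero1a and Gbe1, all lower), and the difference between the times did in 14 (12 without the dim arrays), none after adjustment. Gbe1, the glycogen branching enzyme, read 8.97, 9.30 and 9.38 untreated and 9.29, 9.10 and 9.07 treated at 22:00, a difference of -0.059 ± 0.13, and the late difference was -1.08. The change between the times was -1.02 ± 0.18 (adjusted p = 0.279, limma). Ero1a, an oxidase of protein folding, differed by -0.023 ± 0.16 early and -1.00 late. Ndrg1 differed by -0.43 ± 0.27 early (0.016 without the dim arrays) and -1.96 late. Egln3, another oxygen sensor, lay between 2.65 and 3.72 at 22:00, near the floor, and differed by 0.43 ± 0.51 early and -2.99 late.

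Of the genes of cholesterol synthesis 12 of 17 had positive differences before rupture, against 56.5% of all genes, with a median of 0.091 against 0.053. Of the 17 tested genes 4 reached an unadjusted p under 0.05, all higher, against 7.08% of genes, and 11 did at 10:00, with 0 called at either time. Srebf2, the factor that drives the pathway, read 8.07, 7.99 and 7.97 untreated and 8.37, 8.49 and 8.27 treated. The groups did not overlap, and the difference was 0.37 ± 0.13 (adjusted p = 0.379, limma), with 0.29 without the dim arrays and 0.43 late. Mvk, Fdps and Lss, enzymes of the pathway, differed by 0.55 ± 0.22, 0.36 ± 0.14 and 0.56 ± 0.24 early (0.34, 0.46 and 0.79 without the dim arrays) and by 0.73, 0.80 and 0.17 late. Hsd17b7 went the other way early, by -0.54 ± 0.27, and by 1.11 late, and the change between the times was 1.65 ± 0.39 (adjusted p = 0.279, limma). Untreated sample 3 was its highest value, 8.70 against 7.06 to 7.51 in the other 5, and without the dim arrays the early difference was 0.016.

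**Figure D5:**
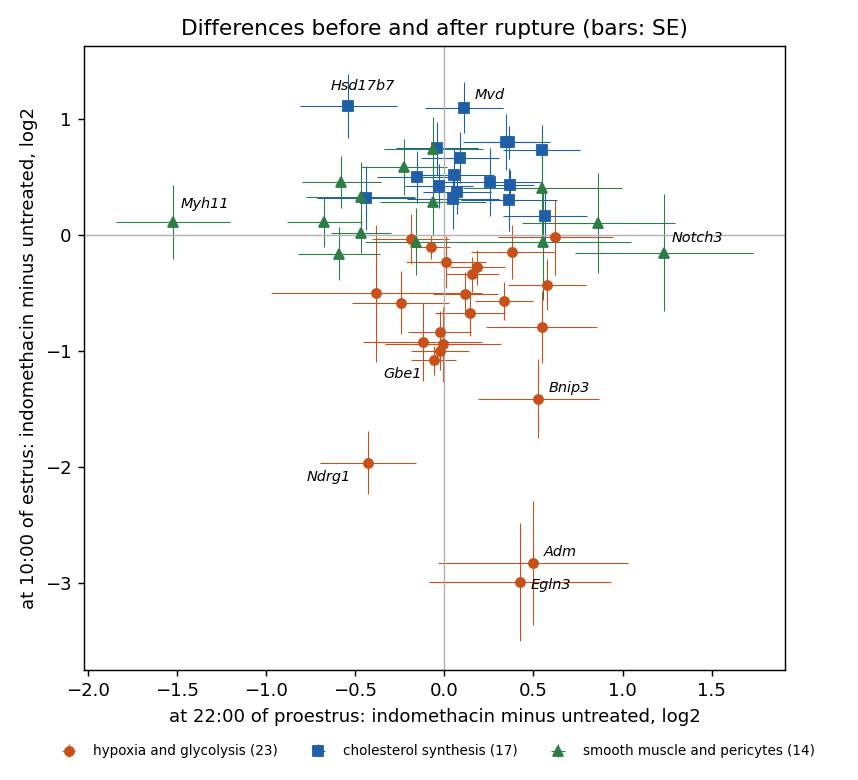
Difference between indomethacin and untreated at 22:00 of proestrus (x axis) and at 10:00 of estrus (y axis), log2, with SE as bars, for the tested genes of 3 lists. Hypoxia and glycolysis genes lie around 0 on the x axis and mostly below 0 on the y axis (Egln3 at -2.99), cholesterol genes above 0 on the y axis, and Myh11 stands lowest on the x axis at -1.52.

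The largest differences on the higher side all had the dim untreated array at the floor. On the lower side 6 of 8 had no array there, but some had treated values at background. The rule took probe sets with an unadjusted p under 0.05 and groups that did not overlap, and gave the 8 largest on each side. On the higher side these were Sirpa (2.45), Zbtb47 (2.44), Cidea (2.21), Ap1s1 (2.09), Pim2 (1.95), Gpr146 (1.94), Dact1 (1.93) and Wbp1l (1.91), and untreated sample 3 stood at the signal floor in all 8. Of 143 such probe sets higher by at least 2-fold, 87 had that array at the floor. Of 61 lower by at least 2-fold, 0 had. The rule itself made that 0 likely, because a fall needs all untreated values above all treated ones. It therefore does not show how well the falls were measured, and the treated dim array was not counted this way. Other tested probe sets of these 8 genes on the higher side gave smaller values. These were 1.07 for Zbtb47, 1.00 for Gpr146, 0.21 for Sirpa, 0.36 for Ap1s1, 0.33 and 0.27 for Wbp1l, and -0.39 for Dact1. On the 4 brighter arrays Ap1s1, Gpr146 and Wbp1l were under 2-fold, at 0.79, 0.96 and 0.87, and the other 5 lay between 1.61 and 2.28. Of these 5, Sirpa, Zbtb47, Cidea and Dact1 were above background on 0 of the 3 untreated arrays, and Pim2 on 1.

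On the lower side the 8 were Gbf1 (-2.55), Bcl2a1 (-2.51), Rsl24d1 (-1.96), Rnf20 (-1.84), Gpr137 (-1.83), Wnt4 (-1.69), Clcn6 (-1.69) and Xist (-1.67). Second probe sets gave -0.0089 for Gbf1, -0.12 for Rnf20, -0.64 for Gpr137 and 0.35 for Clcn6. On the 4 brighter arrays Rnf20 differed by -0.78, and the other 7 by -1.25 to -2.55. Gbf1, with treated deposited signals of 2.31, 1.96 and 1.41, was above background on 0 of the 3 treated arrays, and Gpr137 on 1. Bcl2a1, a relative of the survival factor Bcl2, read 3.92, 4.27 and 5.56 untreated and 1.93, 1.93 and 2.37 treated, the last group at or near the floor. Wnt4, a signal of granulosa cells, read 4.73, 3.76 and 3.16 against 1.93, 2.59 and 2.06 and was above background on 2 of the 6 arrays.

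Xist, the RNA that silences an X chromosome in female cells, was the best measured of them. Of its 4 probe sets, the one that met the rule read 9.06, 9.65 and 9.97 untreated and 8.14, 7.58 and 7.94 treated, a difference of -1.67 ± 0.32 (adjusted p = 0.154, limma), with an interval from -2.35 to -1.00. Without the dim arrays it was -1.31. The other 3 Xist probe sets were also negative, by -0.49 ± 0.14, -0.31 ± 0.19 and -0.26 ± 0.22. At 10:00 of estrus, in other samples, the 4 probe sets differed by -0.86, -0.61, -1.15 and -0.93, all negative again.

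Of the 27 probe sets called without untreated sample 2, Anxa4, an annexin that binds membranes in the presence of calcium, had the smallest adjusted p. It read 7.15, 6.45 and 7.34 untreated and 6.20, 6.20 and 6.30 treated, without overlap, and differed by -0.75 ± 0.17 with all samples (adjusted p = 0.236, limma) and by -1.01 without that sample. A second probe set of the gene gave 0.26 ± 0.31. Tap2, Fhdc1, Rab1b, Plpbp, Frg1, Csnk2a1 and Kctd1 were called on the higher side in that fit, by 1.72 to 3.01, and with all samples they had adjusted p from 0.293 to 0.400. In Tap2, Plpbp, Frg1 and Kctd1 untreated sample 3, 1 of the 2 untreated samples left in that fit, stood at the floor, and without the dim arrays they differed by 0.70, 0.92, 0.87 and 0.67. Thoc2, of the complex that exports messenger RNA, was called at the same adjusted p on the lower side, by -1.86, with -1.54 in all samples (adjusted p = 0.154, limma). Its other probe sets gave -0.34 and 0.46.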

How the data were processed

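RNA of microdissected rat follicles was amplified, labelled with biotin and read on Affymetrix arrays, 1 per sample, per the labels' protocols. Per probe set, a deposited value is a linear intensity, never under 1. The submitters' processing notes name MAS5, without its scaling. The deposited medians differ between arrays, so the 31042 probe sets that are no controls were quantile-normalized over all 18 arrays, a pseudocount of 2.8 (20th percentile) was added and log2 taken. The test covered probe sets brighter than the median of their array on 3 or more of the 18. The 27 unspiked controls set each array's background, the highest of them. Gene names came from the platform annotation, updated through the gene ID. Of the probe sets, 20826 had 1 symbol, 436 several and 9780 none, and the representative of a gene is its probe set with the highest mean.

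The model was fitted by limma 3.58.1 (R 4.3.3): 6 group means over 18 samples, 12 residual degrees of freedom (median prior 5.76), a variance trend and Benjamini-Hochberg adjustment at 0.05. The fit was tested on simulated data, which held no dim arrays, so that test does not cover what the dim arrays do here. An exact permutation test of 3 against 3 cannot go below p = 0.1 and was not used for single genes. The number of arrays limits the precision. Plots used matplotlib 3.10.9 and Python 3.11.15.

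The samples, lists and rules were chosen with earlier results of these data known. The genes named are the 8 largest differences on each side among probe sets with an unadjusted p under 0.05 and groups that do not overlap, not at background in the higher group, 22 fixed genes, the member of each of 28 lists with the smallest unadjusted p, the 8 smallest adjusted p when 1 sample is left out (with a tied gene, Thoc2), and the prostaglandin genes. Other members were named after their values were seen. Promoter windows are from RefSeq. Alternatives were other scalings, pseudocounts, filters, variance priors, array weights, a replicate block and the leaving out of samples.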

Additional observations from a re-analysis of the deposited data

How the results depend on the processing

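The number of probe sets called before rupture stayed at 0 under other scalings, pseudocounts and filters, with only the compared groups, with a robust variance prior, with a replicate block and without the 2 dim arrays. It was 1 without a variance trend, 2349 with array quality weights and 0 to 27 when 1 sample was left out. The number with an interval within 2-fold, 10593, was 1 with the signals as deposited, whose depth differs between arrays. It was 8330 to 15397 otherwise, lowest with only the compared groups. The test of the difference between the times called 5 with the signals as deposited and 548 with array quality weights, and 0 otherwise. The replicate numbers did not pair the samples: deviations of same-numbered samples correlated at -0.304, -0.076 and -0.007. With them as a replicate block 0 were called and 1950 had an unadjusted p under 0.05, against 2074. Of 105 probe sets named and tested, 68 kept their direction under every alternative, and 37 passed the threshold under at least 1. The cause of the reversals was not tested. The differences that reversed without the 2 dim arrays were -0.54 for Ptgs1, 0.87 for Ptgs2, 0.94 for Pgr, -0.039 for Adamts1, 0.69 for Cyp17a1, 0.76 for Cyp19a1, 0.49 for Lhcgr, 1.42 for Areg, 1.40 for Ereg, 0.35 for Has2, 1.24 for Il6, -0.20 for Abcc4, 0.92 for Pla2g4a, 0.14 for Tbxas1, -0.44 for Ptgr2, 0.71 for Inhba, 1.08 for Serpinb2, 0.016 for Ndrg1, 0.0498 for Gbe1, 0.083 for Ero1a and 0.016 for Hsd17b7. With array quality weights they were -0.36 for Ptgs1, -0.28 for Hpgd, 0.023 for Pgr, -0.15 for Edn2, 0.054 for Cyp19a1, 0.011 for Areg, 0.071 for Has2, -0.0699 for Vegfa, 0.036 for Dusp6, 0.028 for Birc3, -0.59 for Plpbp, -0.15 for Kctd1, 0.34 for Pla2g4a, -0.21 for Ptgds, 1.02 for Ptgis, -0.25 for Ptgr2, 0.23 for Ero1a and 0.047 for Hsd17b7. Relative to the shift of all probe sets, they were -0.016 for Cyp11a1, -0.045 for Hsd3b1, 0.0011 for Gbe1 and 0.067 for Ero1a with a common median per array, and with the signals as deposited -0.22 for Ptgs1, 0.071 for Gbe1 and 0.12 for Ero1a. The median of all probe sets, 0.045, was 0.20 and 0.60 under these 2 scalings. Leaving out 1 sample at a time gave ranges of -0.42 to 0.95 for Ptgs1, -1.88 to 0.28 for Ptgs2, -0.0502 to 1.06 for Ptges, -0.44 to 0.27 for Hpgd, -1.58 to 0.062 for Pgr, -0.054 to 0.18 for Adamts1, -0.10 to 0.63 for Edn2, -0.81 to 0.45 for Cyp17a1, -1.00 to 0.19 for Cyp19a1, -1.76 to 0.36 for Areg, -2.08 to 0.23 for Ereg, -0.81 to 0.40 for Has2, -0.43 to 0.99 for Tnfaip6, -1.67 to 0.76 for Il6, -0.027 to 0.30 for Vegfa, -0.68 to 0.44 for Pla2g4a, -0.034 to 0.094 for Ptges3, -0.88 to 0.36 for Ptgis, -1.03 to 0.18 for Tbxas1, -0.17 to 0.38 for Ptgr2, -0.18 to 0.11 for Cbr1, -0.88 to 0.77 for Dusp5, -1.48 to 0.011 for Inhba, -1.20 to 0.40 for Serpinb2, -0.18 to 0.022 for Gbe1 and -0.14 to 0.11 for Ero1a.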
